A study of Mus musculus with 46 samples.

Results

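E060 is a candidate cis-regulatory element (cCRE), a fragment of 450 bp at chr1:118647958-118648408 (mm10) that lies within the Tfcp2l1 gene, 20035 bp from the gene's start. All constructs of the Tfcp2l1 library that hold E060 as the first or the second fragment were taken, which gave 1231 of the 55980 Tfcp2l1 constructs and of the 89293 constructs of the upstream assay. E060 preceded a promoter in 64 of them, followed a promoter in 61, preceded another cCRE in 574, followed another cCRE in 531, and was joined to itself in 1. Its partners were 22 of the 26 promoter fragments and 207 of the 232 cCREs of the locus. E060 was chosen on its high activities ahead of promoters, so those 64 constructs are described here without a test. Constructs with a promoter first and pairs of cCREs had no part in that choice. Whether the fragment falls in an exon or an intron is not given in the sources used here.

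Tfcp2l1 encodes a transcription factor of the network that keeps mouse embryonic stem cells in the naive pluripotent state. Enhancers raise transcription from promoters, and many of them also start transcription themselves, so that in a plasmid an enhancer can act as a promoter. In a massively parallel reporter assay, each plasmid carries a barcode in its transcript, and the barcode's abundance in RNA relative to plasmid DNA gives the activity of the cloned fragments.

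The study placed promoters and cCREs of 3 loci, alone and in pairs, upstream of a barcoded reporter and measured which combinations raise activity. Tfcp2l1 plasmids were brought by nucleofection into E14TG2a cells, an established mouse embryonic stem cell line, grown with 2 kinase inhibitors and leukaemia inhibitory factor (2i+LIF). Each of the 3 biological replicates was a transfection of its own, with RNA taken 24 hours later, and all 3 received the same plasmid pool, separately from the Klf2 and Nanog libraries. The cells are a single line, the reporters are not in the genome, and no treatment was compared: the groups are constructs measured within the same 3 transfections. "First" and "second" are the fragments' places in a construct, a promoter that follows a cCRE being second. Plus and minus are orientations as deposited. Their relation to the genomic strand is not given in the sources used here, and for the promoters of Ralb, Tmem177 and Cfap221, genes on the minus strand, plus was the more active orientation. For that of Inhbb, also on the minus strand, minus was the higher, at 0.0586 against 0.0322, both near 0 and with overlapping replicates.

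Promoters entered these constructs with very different activities of their own, and the 250 bases before the start of 4 of their genes are shown because the comparisons below turn on them. Nifk and Tmem185b had the most active promoter fragments among E060's partners, while those of Inhbb in both orientations and of Tfcp2l1 in minus (P011) lay below a single empty fragment. The letters are RefSeq's for GRCm38.p6, 5′ to 3′ on the gene's strand, and each stretch lies wholly within the fragment tested, at chr1:118321593-118321842 (plus strand, fragment P007, Nifk), chr1:119525904-119526153 (plus strand, P019, Tmem185b), chr1:118627695-118627944 (plus strand, P011, Tfcp2l1) and chr1:119422249-119422498 (minus strand, P017, Inhbb). Capitals mark matches, on either strand, to any of 13 motifs.
Nifk: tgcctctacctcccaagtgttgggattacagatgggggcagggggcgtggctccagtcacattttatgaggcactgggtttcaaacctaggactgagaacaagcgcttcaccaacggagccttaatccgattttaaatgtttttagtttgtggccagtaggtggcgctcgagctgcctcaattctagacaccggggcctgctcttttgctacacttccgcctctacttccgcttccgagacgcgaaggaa
Tmem185b: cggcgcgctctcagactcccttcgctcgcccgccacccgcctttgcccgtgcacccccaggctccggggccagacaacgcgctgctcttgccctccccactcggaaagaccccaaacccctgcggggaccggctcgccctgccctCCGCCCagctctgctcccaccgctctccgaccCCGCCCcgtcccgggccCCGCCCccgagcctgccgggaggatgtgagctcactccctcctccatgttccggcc
Tfcp2l1: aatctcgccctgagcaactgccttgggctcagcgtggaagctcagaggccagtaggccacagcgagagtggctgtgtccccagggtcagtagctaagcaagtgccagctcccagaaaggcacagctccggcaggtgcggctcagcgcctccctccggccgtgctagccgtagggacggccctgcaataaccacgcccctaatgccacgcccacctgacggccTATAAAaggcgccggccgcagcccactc
Inhbb: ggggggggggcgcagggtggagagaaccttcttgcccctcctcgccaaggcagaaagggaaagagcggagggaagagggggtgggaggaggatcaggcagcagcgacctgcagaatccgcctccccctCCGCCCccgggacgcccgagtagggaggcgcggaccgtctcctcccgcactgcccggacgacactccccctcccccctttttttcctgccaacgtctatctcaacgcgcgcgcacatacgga
The motifs searched were ATGCAAA (POU5F1), ACAATGG (SOX), AAGGTCA (ESRRB or NR5A2), GGGTGTG (KLF), GGGCGG (the GC box of SP and KLF factors), CCAGNNNNNNCCAG (TFCP2L1), TTCCNGGAA (STAT), TGANTCA (AP-1), CACGTG (E-box), CCAAT (NFY), GGAATG (TEAD), CCGGAAG (ETS) and, for the TATA box, TATAAA. The Tmem185b stretch held 3 GC boxes and the Inhbb stretch 1, a motif found in 32.7% of all 32851 stretches of this length before RefSeq starts. A TATA box stood in the Tfcp2l1 stretch, as in 12.4% of all stretches, and the Nifk stretch matched none of the 13. Guanine and cytosine made up 52.8% of the Nifk, 74.4% of the Tmem185b, 65.2% of the Tfcp2l1 and 68.0% of the Inhbb stretch. A match is a description of letters, not evidence of binding. The sequence of E060 itself was not analysed here.

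Activities of E060 constructs agreed closely between replicates. None of the 1231 had a replicate at 0, against 9.73% of all Tfcp2l1 constructs, and Pearson's r between replicates over E060 constructs lay between 0.979 and 0.983. The median SD between replicates was 0.15 on the log2 scale, against 0.45 over all constructs. The median activity of E060 constructs was 6.95, 6.998 and 6.12 in replicates 1, 2 and 3. Depth per construct is unknown, since numbers of barcodes and reads were not analysed here.

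On its own, E060 was among the most active fragments of the locus. In the plus orientation its activity was 16.4, 15.9 and 14.3 in the 3 replicates, and in the minus orientation 7.57, 7.54 and 6.92. The orientations did not overlap, and plus exceeded minus by 1.08 ± 0.03 (SD, n = 3) on the log2 scale, a 2.12-fold difference. An empty fragment in the same place gave 0.161, 0.186 and 0.190, so that E060 plus was 86.9-fold and E060 minus 41.0-fold above it. Of 419 oriented cCREs measured alone with no replicate at 0, whose median was 0.0957, only the 2 orientations of E017 exceeded E060 plus. E017, a cCRE that overlaps one edge of the Tsn gene, reached 14.9, 15.0 and 16.9 in plus and 31.3, 29.0 and 33.5 in minus. E017 plus and E060 plus overlapped, and E017 minus was higher than both. A construct of E060 minus followed by E060 plus gave only 3.46, 3.98 and 3.41, below either orientation alone. A construct of 2 empty fragments gave 0.0460, 0.0658 and 0.0654, lower than 1 empty fragment.

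Ahead of promoters, the values on which E060 was singled out, activity was higher than with the promoter alone for 60 of the 61 constructs whose promoter was measured alone. The median log2 difference was 4.45 ± 0.25 (SD between replicates, n = 3), a 21.8-fold difference, and the range over constructs was -0.60 to 7.03. Promoters were split at an activity of 0.25 alone (log2 of -2), which left 32 oriented promoters weak and 15 active. P006 plus, at 0.250, lay just inside the weak group and P021 minus, at 0.273, just outside. Over the 39 constructs with a weak promoter second the median difference was 5.39, and over the 22 with an active one 1.90, an oriented promoter counting once for each orientation of E060. The split and the difference share the promoter's own value, so the 2 are not independent. The final activity kept the order: the median was 10.0 with active and 3.46 with weak promoters. In replicates 1, 2 and 3 it was 9.75, 10.5 and 9.66 with active and 3.65, 3.55 and 2.97 with weak promoters, and the groups' medians did not overlap.

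The largest difference ahead of a promoter was with P023, a fragment within the predicted gene Gm28209. E060 minus before P023 plus gave 4.05, 3.37 and 2.92, against 0.00755, 0.0682 and 0.0349 for P023 plus alone, a difference of 7.03 ± 1.81 (SD, n = 3). The activity with E060 was tight and the promoter's own value was near 0 and scattered, which sets the error. The promoter of Inhbb, which encodes a subunit of activins and inhibins, differed by nearly as much. E060 minus before P017 plus gave 4.23, 4.63 and 3.74, against 0.0138, 0.0376 and 0.0640 alone, a difference of 7.02 ± 1.20. With P031 of C1ql2, a secreted C1q-like synaptic protein, E060 minus gave 3.99, 4.30 and 3.60 before the plus orientation and 2.74, 2.26 and 2.67 before the minus orientation. Those were 6.71 ± 0.87 and 6.01 ± 0.71 above P031 alone.

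Promoters active alone ended higher and differed less from their own level. E060 plus before P019 plus, the promoter of the membrane protein gene Tmem185b, reached 23.1, 21.7 and 22.4, against 7.94, 8.71 and 9.42 alone. This difference of 1.37 ± 0.15 went with the highest activity of any construct with a promoter second. E060 plus before P022 plus, at Ptpn4, which encodes a protein tyrosine phosphatase, followed with 18.8, 19.6 and 18.8. The only construct below its promoter was E060 minus before P007 plus, at Nifk, a nucleolar protein that binds Ki-67. It gave 14.5, 8.30 and 10.5, against 14.8, 17.05 and 17.6 alone, a difference of -0.60 ± 0.52, and all 3 values lay below all 3 of the promoter alone. Nifk's was the strongest promoter fragment, at 16.4 alone.

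A clear relation joined the promoter's own activity to the activity with E060 ahead of it. On log2 scales Pearson's r was 0.77 over 25 oriented promoters with E060 plus and 0.69 over 36 with E060 minus, with slopes of 0.31 and 0.30. These points share E060, the transfections and, for some, a promoter fragment in its 2 orientations. The activities thus spanned a narrower range with E060 than without it. The SD over promoters was 1.00 over 26 constructs (E060 plus) and 1.16 over 38 (E060 minus). It was 2.50 and 2.67 for the 25 and 36 of these promoters that were measured alone. The activity did not follow the distance between the fragments on the chromosome, with Spearman's rho of -0.05 and -0.03.

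The fragments at the start of Tfcp2l1 itself are P011, which spans the start, and P012, which begins 69 bp downstream of it and shares 28 bases with P011. The start meant here is that of the gene's span, chr1:118627923. It lies inside the stretch shown above, which ends just before the RefSeq start used there. Alone, P012 gave 0.104, 0.135 and 0.111 in plus and 0.152, 0.156 and 0.159 in minus. Behind E060 plus it gave 12.8, 11.8 and 11.9 in plus and 13.2, 13.1 and 9.74 in minus. Behind E060 minus it gave 6.66, 5.39 and 5.61, and 8.43, 7.32 and 7.13. The differences from P012 alone were 6.71 ± 0.25, 6.26 ± 0.28, 5.66 ± 0.34 and 5.61 ± 0.16. With E060 plus first, the 13 constructs with other weak promoters ran from 1.94 to 6.73, below both of those with P012. With E060 minus first, 21 constructs with other weak promoters ran from 0.771 to 8.89, so that the values with P012 lay within their range. The highest of the 21 was P025 minus, which was not among the constructs with E060 plus first. P011 minus gave 3.17, 3.02 and 2.55 behind E060 minus, against 0.0591, 0.0579 and 0.0483 alone, a difference of 5.72 ± 0.02. P011 plus, for which no value alone was used, gave 11.3, 11.4 and 10.2 behind E060 minus, above P011 minus in every replicate.

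Placed after a promoter, E060 gave the opposite order of levels. Activity was above that of the promoter alone in 56 of 61 constructs and below it in 1 (limma, BH-adjusted p under 0.05). Over all promoters followed by any cCRE, 23.3% of 4720 constructs were called higher and 42.6% lower, with a median difference of -0.85. The median difference with E060 was 6.54, from replicate medians of 6.80, 6.49 and 6.22. All 44 constructs with a weak promoter first were called higher, with a median of 7.28, and 12 of 17 with an active promoter, with a median of 0.94. E060 alone lay far above the limit of the weak group, so a call above a weak promoter was likely from the start. Here too the split and the difference share the promoter's own value, so the contrast between the groups is not independent of the split. The final activity was 12.04 in the median after weak promoters and 8.75 after active ones. Against E060 alone in the same orientation, the median log2 difference over the 61 constructs was only -0.08. The rise over the promoter alone thus led to about the level of E060 alone. Over promoters the log2 activity had an SD of 0.55 with E060 plus and 0.49 with E060 minus, against 2.61 and 2.90 for the same promoters alone. Pearson's r with the promoter's own activity was -0.16 over 37 oriented promoters and -0.28 over 24, so the positive relation seen with the promoter second was not seen here. These points share E060 and the transfections. Because 21 of the 61 promoter baselines had a replicate below 0.05, the folds of the weakest promoters rest on values near 0. With baselines of at least 0.05, 36 of 40 constructs were called and the median was 5.18.

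The largest difference was again with P023. P023 plus followed by E060 plus gave 21.8, 22.1 and 17.7, which was 9.61 (SE 0.79) above P023 plus alone (limma, BH-adjusted p = 8.24e-05). P017 plus of Inhbb followed by E060 plus gave 26.6, 22.0 and 17.8, a difference of 9.40 (SE 0.57; limma, BH-adjusted p = 2.73e-05). All 6 values lay above those of E060 plus alone, 14.3 to 16.4. P031 plus and minus of C1ql2 followed by E060 plus gave 13.2, 13.0 and 11.98, and 13.4, 14.8 and 13.1. Those were 8.39 (SE 0.41) and 8.45 (SE 0.35) above the promoter alone (limma, BH-adjusted p = 1.69e-05 and 1.06e-05), and they overlapped those of E060 plus alone only for the minus orientation.

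The exception was Nifk. P007 plus followed by E060 minus gave 5.96, 6.67 and 6.16, all below the 14.8, 17.05 and 17.6 of the promoter alone, and it fell by 1.39 (SE 0.18; limma, BH-adjusted p = 0.000647). With E060 plus in second place the values were 17.9, 16.3 and 13.1, a difference of -0.07 (SE 0.20) that did not pass (limma, BH-adjusted p = 0.766). Set against E060 alone in the same orientation, the first of these lay at -0.23 and the second at 0.01 on the log2 scale. P019 plus of Tmem185b followed by E060 plus gave 15.0, 13.9 and 14.3, up by 0.73 (SE 0.17; limma, BH-adjusted p = 0.0108). With E060 minus it gave 9.78, 7.65 and 8.95, a difference of 0.01 (SE 0.19; limma, BH-adjusted p = 0.959). P018 plus of Ralb, a Ras-like small GTPase, followed by E060 minus gave 5.32, 5.11 and 5.54, a difference of -0.29 (SE 0.19; limma, BH-adjusted p = 0.210).

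After the Tfcp2l1 fragments, E060 stood lower than after other weak promoters. P012 plus followed by E060 plus gave 7.29, 6.99 and 6.27, and P012 minus 7.32, 7.58 and 7.21. P011 minus followed by E060 plus gave 6.58, 5.90 and 6.74. These 3 constructs lay between 6.40 and 7.37, below all 24 constructs of E060 plus after another weak promoter, which ran from 7.79 to 21.8 with a median of 15.4. With E060 minus the 2 constructs after P012 had 4.07 and 4.33, below the 6.01 to 14.5 of 15 others. They were still well above their promoters alone, by 5.57 to 6.86 with E060 plus (limma, BH-adjusted p at most 7.04e-06 in each). After active promoters the levels ran from 5.04 to 16.1 with E060 plus and from 4.23 to 9.85 with E060 minus. Levels about this low were thus not particular to the Tfcp2l1 fragments. The contrast with other weak promoters was noticed in these values and is given without a test.

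Order could be compared for 43 pairings of E060 with a promoter that kept both orientations, again as a description because the values with the promoter second chose E060. With 26 pairings of 10 weak promoter fragments other than those of Tfcp2l1, activity was higher with E060 second in every pairing, by 3.93-fold in the median. The largest was with P020, at the gene 3830432H09Rik, where E060 minus gave 0.858 first and 11.8 second. P012 went the other way in all 4 of its pairings, with E060 first 1.69-fold higher in the median. Its values with E060 plus first, 12.8, 11.8 and 11.9 for P012 plus, did not overlap those with E060 plus second, 7.29, 6.99 and 6.27. Among 13 pairings with active promoters, 8 were higher with E060 first and 5 with E060 second. P018 plus of Ralb with E060 minus had the largest difference in that direction, 12.7 first against 5.32 second.

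With E060 ahead of another cCRE, activity was above that of the partner alone nearly throughout. E060 alone lay far above most cCREs alone, so a call above the partner was likely from the start in either place. The median activity was 0.34 of the sum of both fragments alone, and 554 constructs lay below that sum. That sum adds constructs of 1 fragment each, and 2 empty fragments gave less than 1, with geometric means of 0.0582 and 0.179. The part of this gap in the comparison with the sum was not tested. Of 560 constructs whose partner was measured alone, 546 were called higher than the partner and 1 lower (limma, BH-adjusted p under 0.05). Over all cCRE pairs set against their second cCRE alone, 34% of 39839 were called higher and 17.4% lower. The median difference was 4.93, from replicate medians of 5.21, 4.92 and 4.65. It was 5.36 with E060 plus over 217 constructs and 4.75 with E060 minus over 343. Of 186 cCREs with at least 10 such constructs, none had a larger median difference than E060, although E017 was level with it, also at 4.93. The median over these cCREs was -0.20. The activity reached was 4.95 in the median with E060 plus and 2.88 with E060 minus, from 1.19 to 23.4 and from 0.311 to 17.3. Pearson's r with the partner's own activity was 0.31 and 0.43 over these constructs, which share E060 and the transfections.

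The 3 largest differences in this order were with partners near 0 alone. E060 minus before E099 plus gave 5.58, 5.33 and 4.67, and E060 plus before it 5.26, 5.72 and 3.94, against 0.0144, 0.0443 and 0.0286 for E099 plus alone. Those differences were 7.62 (SE 0.42) and 7.54 (SE 0.44; limma, BH-adjusted p = 4.69e-05 and 5.30e-05). E099 lies within Gli2, which encodes a transcription factor of Hedgehog signalling. E060 plus before E252 plus gave 5.66, 6.79 and 5.57, a difference of 7.58 (SE 0.58; limma, BH-adjusted p = 0.000123). The smallest differences were with strong partners. E060 minus before E017 minus gave 17.1, 15.1 and 16.5, below the 31.3, 29.0 and 33.5 of E017 minus alone, and it fell by 0.94 (SE 0.18; limma, BH-adjusted p = 0.00641). E060 plus before E017 minus gave 26.5, 21.5 and 22.5, a difference of -0.42 (SE 0.19; limma, BH-adjusted p = 0.119). E060 minus before E077 plus gave 1.11, 1.22 and 1.11, against 1.26, 1.41 and 1.57 alone, a difference of -0.30 (SE 0.19; limma, BH-adjusted p = 0.231).

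Behind another cCRE, E060 gave higher and more even levels. Of 529 constructs, 525 were called higher than the partner alone and 2 lower (limma, BH-adjusted p under 0.05). Over all cCRE pairs set against their first cCRE alone, 35.3% of 40066 were called higher and 25.2% lower. The median difference was 6.72, from replicate medians of 6.96, 6.61 and 6.48, and only E017 of 199 cCREs had a larger median, at 7.77. With E060 plus the median activity was 13.4, with quartiles of 11.03 and 15.4, and with E060 minus it was 8.59, with quartiles of 6.63 and 10.4. Over partners the log2 activity had an SD of 0.41 and 0.55, against 1.79 and 1.77 alone for those of the partners that were measured alone. Pearson's r with the partner's activity was -0.14 and -0.18. A promoter in the place of the partner cCRE led to much the same level, with medians of 14.1 and 8.37 for E060 plus and minus. More even levels in second place were not particular to E060. For E017 the SD over partner cCREs was 0.40 (plus) and 0.27 (minus) second, against 0.87 and 1.06 first. For E166 it was 0.61 and 0.55 against 1.16 and 1.14, and for E301 0.67 and 0.88 against 1.17 and 1.28.

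The largest differences again had partners near 0. E165 minus followed by E060 plus gave 20.0, 18.1 and 13.9, a difference of 9.94 (SE 1.23; limma, BH-adjusted p = 0.000763). E085 plus followed by E060 plus gave 15.0, 14.9 and 13.7, a difference of 9.88 (SE 1.10; limma, BH-adjusted p = 0.000471). E053 minus followed by E060 plus gave 21.9, 21.3 and 19.2, a difference of 9.41 (SE 0.43; limma, BH-adjusted p = 1.53e-05). E053 lies 1546 bp before Tfcp2l1, and its own activity was 0.0163, 0.0511 and 0.0338. The 2 constructs called lower had E017 minus first. With E060 minus second they gave 11.1, 10.9 and 11.01, and with E060 plus second 17.7, 18.1 and 16.1. Both lay below E017 minus alone, and they fell by 1.502 (SE 0.17) and 0.85 (SE 0.18; limma, BH-adjusted p = 0.000559 and 0.00723).

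Against E060 alone in the same orientation, the place of E060 set how often a partner went with lower activity. With E060 first, 508 of 574 constructs were called lower than E060 alone and 4 higher, and the median difference was -1.51 (SD between replicate medians 0.02). All constructs with the same E060 orientation were set against the same 3 values of E060 alone, so the calls in either place are not independent. E060 alone is a construct of 1 fragment, and 2 empty fragments gave less than 1, with geometric means of 0.0582 and 0.179. The part of that gap in the comparison was not tested, and it concerns both places of E060. Over all cCRE pairs set against their first cCRE, 24.8% were called lower and 35% higher by limma. With E060 second, 84 of 531 were called lower and 53 higher, with a median of -0.09 (replicate medians -0.08, -0.06 and -0.12). The corresponding shares over all pairs were 17.9% lower and 34.4% higher. Of the 53, 52 had E060 minus, whose constructs had a median of 0.23 in second place, against -0.22 for E060 plus. The 4 higher constructs with E060 first all had E017 as their partner. Without replicate 2, the total called in both places fell from 649 to 418. Against the median construct with E060 in that place and orientation, in place of E060 alone, 150 were called higher and 193 lower. Other strong cCREs had such a contrast between places too. Medians against E017 alone were -2.77 (plus) and -3.21 (minus) with E017 first, and 0.51 and -0.06 with it second. E166 had -0.85 and -0.86 first, and 0.22 and 0.19 second. E301 had -0.60 and 0.28 first, and -0.12 and 0.19 second.

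Partners differed in a way that repeated between the orientations of E060 and not between its places. Over 220 oriented partners, log2 activities with E060 plus first and E060 minus first had a Pearson's r of 0.83. Over 215, those with E060 plus second and minus second had 0.81. Between first and second place r was between -0.03 and 0.15 over 149 to 277 oriented partners. A partner's own orientation mattered too: r between its plus and minus orientation was 0.26 to 0.41 over 67 to 157 partners. All of these points share E060, the transfections and, in part, fragments, and they are given as a description.

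E209 and E267 were the partners with the lowest activities ahead of E060. Of 115 partners with at least 3 constructs of E060 second, these 2 alone had every construct called lower than E060 alone. E209, which lies 17279 bp from Ptpn4, gave 3.05, 3.24 and 3.06 in minus followed by E060 plus, and 1.41, 1.20 and 1.47 followed by E060 minus. Those fell by 2.32 (SE 0.18) and 2.44 (SE 0.19) from E060 alone (limma, BH-adjusted p = 0.000108 and 0.000111). In plus it gave 10.4, 9.30 and 8.93, and 3.64, 3.39 and 3.40. E267, within Steap3, a metalloreductase gene, gave 3.87, 3.84 and 3.57 in minus followed by E060 plus, and 1.86, 1.51 and 1.73 followed by E060 minus. In plus it gave 11.5, 11.1 and 9.11, and 4.84, 4.51 and 4.15. For both partners the minus orientation was the lower one. Alone, the log2 activity in minus was -3.04 for E209 and -1.23 for E267, against -2.48 for the empty fragment.

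At the other end, E291 plus followed by E060 minus gave 21.8, 17.8 and 18.7, above the 7.57, 7.54 and 6.92 of E060 minus alone by 1.40 (SE 0.19; limma, BH-adjusted p = 0.00115). E219 minus and E227 minus followed by E060 minus gave 16.5, 17.03 and 14.2, and 17.3, 14.9 and 15.2, each up by 1.11 (SE 0.18; limma, BH-adjusted p = 0.00298 and 0.00275). The same 3 partners with E060 first gave far less. E060 minus before E291 plus gave 1.35, 1.43 and 1.19, before E219 minus 4.49, 4.31 and 4.14, and before E227 minus 1.45, 1.62 and 1.27. The lowest E060 construct of all was E060 minus before E093 plus, with 0.285, 0.317 and 0.333, a fall by 4.56 (SE 0.18) from E060 minus alone (limma, BH-adjusted p = 1.61e-05). E093 lies within Gli2. With E060 plus in front, the same fragment gave 3.11, 2.54 and 3.32.

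Order was tested directly over 394 cCRE pairings measured both ways round with the same orientations. E060 first was called lower than E060 second in 318 and higher in 3 (limma, BH-adjusted p under 0.05). Over the orders of all cCRE pairs, those of E060 among them, 20.8% of 8710 were called lower and 18% higher. In pairs without E060 the difference was taken for the lower-numbered cCRE, so lower and higher are arbitrary directions there. The median difference was -1.40, with replicate medians of -1.42, -1.38 and -1.42, so that activity was 2.63-fold higher with E060 second. The sign was the same in all 3 replicates for 368 pairings toward E060 second and for 12 toward E060 first. With only 2 replicates the count of calls fell from 321 to 207, 155 and 202 without replicates 1, 2 and 3, all but 2 of these toward E060 second. Over 146 cCREs with at least 10 such pairings, 4 had a more negative median, with E017 at -3.08 the most negative, and the median over cCREs was 0.36. A cCRE's order difference went with its own level alone at a Spearman's rho of -0.55 over these 146, which share partners.

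The full design could be read for 149 oriented partners, from 103 cCREs, that were measured with E060 in all 4 arrangements. Median activity was 13.4 with E060 plus second, 8.60 with minus second, 5.01 with plus first and 3.38 with minus first. In replicates 1, 2 and 3 these medians were 14.1, 13.9 and 12.05, then 8.87, 8.78 and 7.76, then 5.40, 5.24 and 4.63, and last 3.29, 3.48 and 3.07. The 4 arrangements did not overlap between replicates. Plus second was the highest arrangement for 136 of the 149 partners and minus first the lowest for 134. The SD over partners on the log2 scale widened in the same order, from 0.41 and 0.59 with E060 second to 0.69 and 0.84 with E060 first.

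The orientation of E060 was tested over 459 pairings with the partner, its orientation and the order held fixed. Plus was called higher than minus in 230 and lower in 2 (limma, BH-adjusted p under 0.05). Over all cCREs in such pairings, 16.4% of 24323 were called higher in plus and 13.9% lower. The median difference was 0.74, with replicate medians of 0.75, 0.72 and 0.69, a 1.67-fold difference. It was 0.81 with E060 before a cCRE, 0.67 with E060 after a cCRE and 0.80 with E060 after a promoter, where all 24 pairings had the same sign in every replicate. In all, 425 pairings had plus above minus in all 3 replicates and 8 had minus above plus. With the replicate number as a block, 135 were called, all of them higher in plus. The number of calls rested on all 3 replicates: it was 12, 2 and 3 without replicates 1, 2 and 3, while the median stayed between 0.71 and 0.75.

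The nearest cCREs on the chromosome are E059 and E061. E059, 1799 bp away in Tfcp2l1, gave 0.0861, 0.120 and 0.111 alone in plus. Followed by E060 plus it gave 16.5, 15.5 and 13.7, and preceded by E060 plus 5.04, 6.07 and 6.06. E061, 9410 bp away on the other side, gave 16.1, 15.7 and 12.9 in plus followed by E060 plus. The means of these 3 constructs lay within the quartiles of E060 plus with all cCREs, 11.03 and 15.4 in second and 3.69 and 6.91 in first place. E061 minus followed by E060 plus gave 18.99, 18.8 and 17.01, above the upper quartile. Spearman's rho between the activity and the distance from E060 was between -0.09 and 0.20 over the constructs of each class, order and orientation.

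With other strong partners behind E060, the difference from the partner alone was small for some and not for others. E166, which lies 16368 bp from Inhbb, gave 3.14, 3.00 and 3.31 alone in plus, and 3.56, 3.14 and 3.89 after E060 plus, a difference of 0.16 (SE 0.19; limma, BH-adjusted p = 0.507). E301 plus, which lies 24845 bp from Marco, gave 5.11, 5.03 and 4.55 alone and 6.24, 7.47 and 5.10 after E060 plus, a difference of 0.34 (SE 0.22; limma, BH-adjusted p = 0.235). E301 minus, at 1.82, 1.69 and 1.73 alone, gave 4.25, 4.93 and 3.79 after E060 plus, up by 1.30 (SE 0.19; limma, BH-adjusted p = 0.00215). Followed by E060 plus, E301 plus gave 16.5, 13.8 and 11.8, up by 1.51 (SE 0.21; limma, BH-adjusted p = 0.00119), and overlapping E060 plus alone. E060 plus before E017 plus exceeded both of its fragments, with 24.6, 22.8 and 21.5, above E017 plus alone by 0.56 (SE 0.18; limma, BH-adjusted p = 0.0457) and above E060 plus alone by 0.56 (SE 0.18; limma, BH-adjusted p = 0.0392). Partners with low activity of their own reached different levels, as E080, E101, E145 and E286 show beside E099. E080 plus followed by E060 plus gave 11.7, 12.5 and 10.99, and followed by E060 minus 12.1, 10.1 and 8.65. Preceded by E060 minus, E080 plus gave 0.442, 0.514 and 0.593, and E080 minus 1.84, 1.80 and 1.61. E101 plus and E145 plus followed by E060 plus gave 17.1, 15.1 and 14.1, and 16.97, 19.3 and 16.6. E286 minus gave 13.5, 13.3 and 11.3 followed by E060 plus, and 5.40, 5.92 and 4.62 preceded by it.

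E017 is the cCRE most like E060, and both could be compared with the same partner in the same place. Plus and minus have no common meaning between 2 fragments, so the pairing by label is arbitrary. E060 was called higher than E017 in 89 of 766 pairings and lower in 573 (limma, BH-adjusted p under 0.05), and since this fit holds no other cCRE, the background is the same 11.6% and 74.8%. In second place E060 was lower nearly throughout, in 381 of 413 pairings after a cCRE and 42 of 48 after a promoter, which is 92.3% and 87.5%, with medians of -1.18 and -1.33. In first place the picture was mixed, with 86 called higher (28.2%), 150 lower (49.2%) and a median of -0.23 over 305. This split followed the labels: plus against plus gave 16 called higher of 18, all 18 differences being above 0, with a median of 1.29, and minus against minus 70 higher and 150 lower of 287, with a median of -0.29. E017 gave 22.2 and 29.9 second in plus and minus, against 13.4 and 8.59 for E060, but 2.28 and 3.37 first, against 4.95 and 2.88. Each of these medians is over the partners measured in that arrangement, which were not matched. The 2.28 of E017 plus first rests on 19 constructs, against 300 for E017 minus first. In first place E060 plus was thus above both orientations of E017 in the median and E060 minus between them, while in second place both orientations of E060 were below both of E017. The gap between the places was thus wider for E017 than for E060, with order medians of -3.08 and -1.40. E166 and E301, weaker alone, had order medians of -0.94 and -0.32. The difference between E060 and E017 in this gap was not tested.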

How the data were processed

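Activities of the Tfcp2l1 upstream library were used, from 3 biological replicates in E14TG2a cells. The authors' deposited values are a ratio of barcodes in RNA to barcodes in plasmid DNA per construct and replicate, not log-transformed. Plasmid DNA, measured in 2 replicates, served as the input per the labels. Per the submitters' processing notes, Bowtie2 and mm10 were used. How barcodes were counted, filtered and scaled is not given in the sources used here, and the depth per construct is unknown. Single fragments come from constructs with 1 fragment.

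Samples were grouped by their titles, and 9 value columns were used: 3 replicates of the construct and of each of its fragments alone. Activities were tested as log2 values with limma 3.58.1 in R 4.3.3 (lmFit and eBayes), 3 values of a construct against 3 of its baseline. Benjamini-Hochberg (BH) adjustment, at 0.05, ran over all Tfcp2l1 constructs of the comparison. A replicate at 0 took a construct out of the fits. That touched no E060 construct, but the partner alone had a replicate at 0 for 2 E060 constructs and no value for 17. Python 3.11.15, numpy 2.4.6, pandas 2.3.3 and scipy 1.17.1 were used for the rest. The scripts were tested on simulated data. Percentages of called constructs give the background, since the p-values measure only the spread between transfections of the same plasmid pool.

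A construct and its baseline were measured in the same transfection, so replicate numbers pair them. The correlation of their deviations was between -0.0014 and 0.15 over the 7 tests and 3 replicates. The fits were made without the block, and with it as an alternative. The other alternatives kept constructs at 0 with a pseudocount of 0.01, left out each replicate, took the median construct as baseline, or asked for baselines of at least 0.05.

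The members, the lists and the partners to be named were chosen with earlier results of these data known. The partners named by rule were the Tfcp2l1, Inhbb and C1ql2 promoters, 3 strong and 5 low cCREs, E060's neighbours, and the highest and lowest differences of each order. Other partners named were picked after their values were seen. A motif search in E060 needs a genome and was not run. RefSeq promoter stretches (GRCm38.p6) lay within 11 of the 22 partner promoter fragments.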

Additional observations from a re-analysis of the deposited data

How the results depend on the processing

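Directions were kept under every alternative run for the 7 tests, with the exception of cCRE pairs against E060 alone, whose median difference of -0.68 became 0.014 with the median construct as baseline, which by construction sits in the middle of the same constructs, and whose calls went from 649 to 343. Calls fell from 57 of 61 to 36 of 40 after promoters when baselines of at least 0.05 were asked for, since fewer constructs were tested, and the median moved from 6.54 to 5.18. With the median construct as baseline that median was 6.85. The baseline minimum moved the medians with cCREs to 4.38 (E060 first) and 5.91 (E060 second). Means in place of medians were 5.55 after promoters, 4.62 and 6.26 with cCREs in first and second place, -1.45 for order, -0.84 against E060 alone and 4.03 before promoters, where the median construct as baseline gave 4.95. Leaving out 1 replicate gave 155 to 207 calls for order (medians -1.41 to -1.37), 2 to 12 for orientation (medians 0.71 to 0.75) and 418 to 546 against E060 alone. With the replicate block, calls for orientation went from 232 to 135, those for order to 295 and those against E060 alone to 599, and the block moved no other count of calls by over 1.5 times. Activities near 0 limit the folds of weak partners, and depth was not analysed here.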
